A study of Mus musculus with 8 samples.

Results

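The genes described here encode T cell costimulatory receptors, 10 of the 54532 genes in the count table, chosen by symbol: Cd28, Icos, Ctla4, Cd2, Cd5, Cd6, Cd27, Tnfrsf4, Tnfrsf9 and Tnfrsf18. Each symbol matched a single row, and all 10 genes had enough reads to be tested. A T cell that meets its antigen responds fully only when further receptors on its surface bind ligands on the antigen-presenting cell. CD28 and ICOS give such signals through immunoglobulin-family ligands, CTLA-4 competes with CD28 for the same ligands and restrains the cell, and CD2, CD5 and CD6 set adhesion and signaling strength at the contact. CD27, OX40 (Tnfrsf4), 4-1BB (Tnfrsf9) and GITR (Tnfrsf18) belong to the TNF receptor family and sustain activated or regulatory T cells, and several of them are targets of agonist antibodies in cancer therapy.

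Tumors of the mouse TNBC line 4T1-FLuc, a mammary carcinoma line carrying a luciferase reporter, were grown subcutaneously in immunocompetent female BALB/cJ mice that were 6 weeks old at injection. One group received mAb-DXd/IMQ, an antibody against CD276 loaded with both deruxtecan (DXd), a topoisomerase inhibitor, and an imidazoquinoline (IMQ), a Toll-like receptor agonist, by intravenous injection, in 5 courses of 16 mg/kg spaced 4 days apart. The other group received the vehicle, called saline in the sample titles and PBS control in the treatment label, while the treated group is labelled HumCD276-Dxd/IMQ. Bulk RNA-seq of tumors taken at the endpoint gave read counts per gene for 4 saline and 4 mAb-DXd/IMQ tumors, numbered as separate samples in the labels. Total counts were 49398150, 45019927, 56388627 and 69582375 in saline tumors 1 to 4 and 51625237, 46196237, 42965317 and 34591912 in mAb-DXd/IMQ tumors 1 to 4. Levels are given as CPM, counts scaled to library size with TMM factors, and 3 counts corresponded to 0.0439 to 0.0843 CPM depending on the tumor, a lower limit that reflects counting error alone. The 10 receptors together held between 1984 and 5442 counts per tumor.

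The labelled tissue was checked against marker genes. Krt18 and Krt8, keratins of luminal epithelium, averaged 637 ± 37.1 and 654 ± 35.6 CPM (SD, n = 4) in saline tumors and 718 ± 174 and 658 ± 165 CPM (SD, n = 4) after treatment. Of the receptors whose lack defines TNBC, Pgr was low at 0.367 ± 0.281 and 0.578 ± 0.191 CPM in the respective groups. Esr1 was detected at 19.1 ± 1.14 and 15.7 ± 1.60 CPM, and Erbb2 at 102 ± 19.7 and 101 ± 14.1 CPM. These are RNA levels of whole tumors without correction for gene length, and Esr1, 13661 bases long, stood at 1.40 and 1.15 CPM per kb. Receptor protein on the tumor cells was not measured in these data. Leukocyte RNA was present in every tumor, with Ptprc, which encodes the pan-leukocyte protein CD45, at 155 ± 22.9 and 140 ± 35.5 CPM.

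Of the 10 receptor genes, 9 had a lower and 1 had a higher fitted level after mAb-DXd/IMQ than after saline. Among all genes tested, 47.4% had a log2 fold change below 0. The median log2 fold change over the 10 genes was -0.82, against 0.022 over all 18511 genes tested. A single member, Cd2, passed the thresholds of a false discovery rate under 0.05 and a log2 fold change beyond 0.58 in either direction in edgeR's quasi-likelihood test. Among all genes tested 1.06% passed (197 genes, 101 higher and 96 lower), and 0.519% passed with a lower level. With upper-quartile scaling the split over all genes was 145 higher and 73 lower, and again 9 members were below 0. At an unadjusted p under 0.05, 5 of the 10 members were lower, while 9.79% of all genes tested were. In CPM, 4 of the 10 members (Cd28, Icos, Cd2 and Cd27) were lower in every mAb-DXd/IMQ tumor than in every saline tumor, and 7.1% of all genes tested were. In bulk tumors, fewer cells of a type and less RNA per cell cannot be told apart, and this holds for every level given here.

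**Figure D1:**
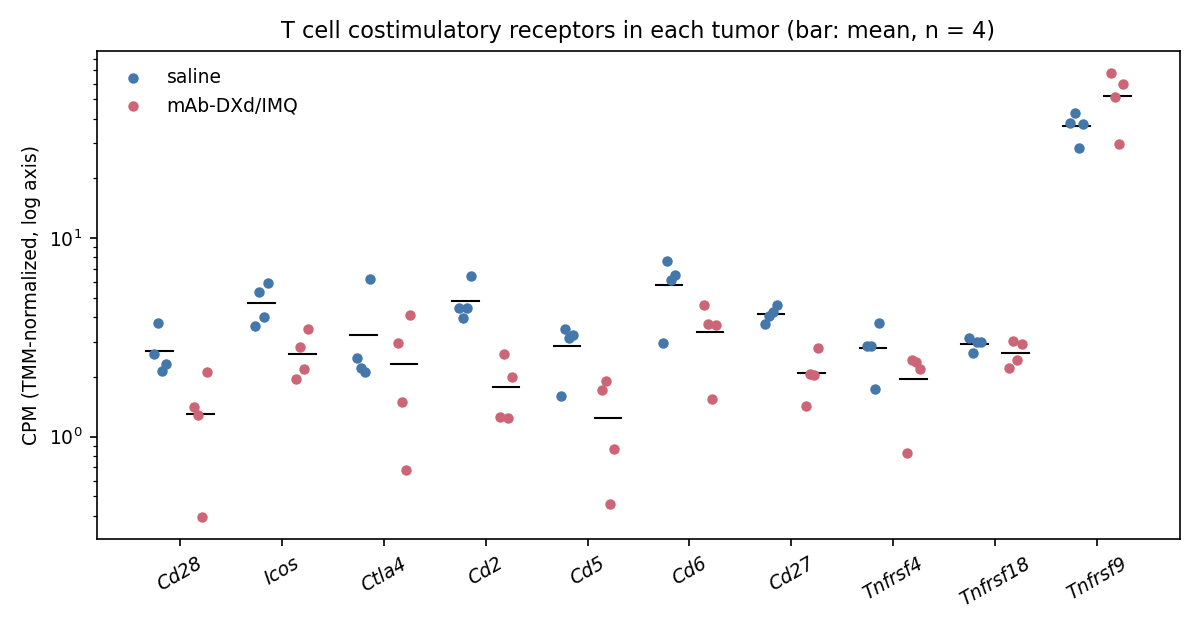
CPM of the 10 receptor genes (log axis) in the 4 saline and 4 mAb-DXd/IMQ tumors, with 1 point per tumor and a bar at the group mean. The groups were apart for Cd28, Icos, Cd2 and Cd27, and Tnfrsf9 lay above the other members in every tumor on this scale, which is not corrected for gene length.

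Cd28 encodes the primary costimulatory receptor of naive T cells, which acts through PI3K and raises IL-2 production. It stood at 2.62, 3.72, 2.15 and 2.33 CPM in saline tumors 1 to 4 and at 1.40, 1.28, 0.393 and 2.11 CPM in mAb-DXd/IMQ tumors 1 to 4. The groups did not overlap, although the highest treated tumor and the lowest saline tumor were close, and the separation was lost with upper-quartile scaling and with scaling to library size alone. Its log2 fold change was -1.06 (SE 0.43), and it did not pass (edgeR adjusted p = 0.214).

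Icos, induced on activated T cells and prominent on follicular helper and regulatory T cells, measured 3.61, 5.33, 3.99 and 5.94 CPM in saline tumors. It measured 1.96, 2.83, 2.18 and 3.49 CPM in mAb-DXd/IMQ tumors. Every treated tumor was below every saline tumor, by a narrow margin between treated tumor 4 and saline tumor 1 that closed with upper-quartile scaling. The log2 fold change was -0.85 (SE 0.26), short of the threshold (edgeR adjusted p = 0.119), and DESeq2's test was the 1 alternative that called it (adjusted p = 0.0253, range 0.0253 to 0.316 over all alternatives).

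Ctla4, the inhibitory counterpart of Cd28 and a constitutive product of regulatory T cells, measured 2.49, 2.21, 2.11 and 6.23 CPM in saline tumors. In mAb-DXd/IMQ tumors it measured 2.97, 1.50, 0.677 and 4.10 CPM. The groups overlapped widely, and saline tumor 4 was far above the other saline tumors. The log2 fold change was -0.51 (SE 0.53; edgeR adjusted p = 0.65), and it was 0.028 without saline tumor 4. The pseudogene Rpl18-ps1 overlaps the span of Ctla4 on the same strand and held 454 counts over the 8 tumors, 39.3% of the 1156 on Ctla4, with no exon bases in common.

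Cd28, Ctla4 and Icos are neighbors on chromosome 1 (GRCm38), all on the plus strand, at 60716800 to 60773359, 60887000 to 60915832 and 60977927 to 61000320. Within a tumor, Ctla4 CPM divided by Cd28 CPM averaged 1.30 ± 0.93 (SD, n = 4) in saline and 1.74 ± 0.41 (SD, n = 4) after treatment, and the groups overlapped; saline tumor 4 was at 2.68 and the other saline tumors at 0.594 to 0.983. The corresponding quotient of Icos over Cd28 was 1.38, 1.43, 1.86 and 2.55 in saline and 1.40, 2.20, 5.56 and 1.65 after treatment, also with overlap, and the highest value, of treated tumor 3, rests on 18 counts of Cd28. On the outer sides of this cluster lie Raph1, an actin regulator, with a log2 fold change of -0.15 (SE 0.17), and Pard3b, a polarity gene, with -0.48 (SE 0.44).

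Cd2 encodes an adhesion receptor of T and NK cells that binds CD48 in the mouse. It stood at 4.46, 3.97, 4.46 and 6.42 CPM in saline tumors and at 1.26, 2.61, 1.25 and 2.00 CPM in mAb-DXd/IMQ tumors. No treated tumor reached the lowest saline value. Cd2 fell by 1.44 on the log2 scale (SE 0.30; edgeR adjusted p = 0.0458), from 4.83 ± 1.09 to 1.78 ± 0.66 CPM (SD, n = 4 each), which made saline tumors 2.72-fold higher. This call was near its threshold: it was lost when any 1 of the 8 tumors was left out, with log2 fold changes of -1.69 to -1.27. It was also lost with scaling to library size alone. A block on replicate number lost it too, at -1.49, or -1.60 with the gene length trend removed. Adjusted p over all alternatives was 0.00019 to 0.155. The genes on either side on chromosome 3, Ptgfrn and Igsf3, both of the immunoglobulin superfamily, had log2 fold changes of -0.076 (SE 0.10) and -0.049 (SE 0.12).

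Cd5 and Cd6 encode related scavenger receptor proteins that associate with the T cell receptor and temper or adjust its signal; Cd6 binds ALCAM. Cd5 measured 1.60, 3.48, 3.14 and 3.23 CPM in saline tumors and 1.71, 1.91, 0.459 and 0.871 CPM in mAb-DXd/IMQ tumors. Saline tumor 1 lay among the treated tumors and the other 3 saline tumors lay above all of them. Cd5 had a log2 fold change of -1.20 (SE 0.44; edgeR adjusted p = 0.172).

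Cd6 measured 2.98, 7.67, 6.16 and 6.51 CPM in saline tumors and 4.60, 3.70, 1.55 and 3.65 CPM in mAb-DXd/IMQ tumors. The pattern was that of Cd5: saline tumor 1 overlapped the treated range and treated tumor 3 was lowest. Cd6 had a log2 fold change of -0.79 (SE 0.36; edgeR adjusted p = 0.267). Without saline tumor 1, both Cd5 and Cd6 were lower in every treated tumor, and the count of members without overlap became 6 of 10, against 10.4% of all genes tested in that setting.

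Cd5 and Cd6 are adjacent on the minus strand of chromosome 19, at 10718143 to 10738974 and 10789341 to 10830058, with 50.4 kb between them. Cd5 CPM divided by Cd6 CPM was 0.537, 0.453, 0.509 and 0.497 in saline tumors and 0.372, 0.514, 0.296 and 0.238 in mAb-DXd/IMQ tumors. The quotient varied little among saline tumors, and 3 of the 4 treated tumors lay below all of them. On their outer sides, Vps37c, of the ESCRT machinery, had a log2 fold change of -0.18 (SE 0.099), and Slc15a3, a lysosomal transporter, one of 0.38 (SE 0.16).

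Among the TNF receptor family, Cd27, a marker of naive and memory T cells that binds CD70, measured 3.71, 4.06, 4.23 and 4.61 CPM in saline tumors. It measured 1.42, 2.08, 2.05 and 2.78 CPM in mAb-DXd/IMQ tumors. The groups were clearly apart and the saline tumors were close together, with a coefficient of variation of 8.98% against 26.7% in treated tumors. The fitted log2 change was -0.997 (SE 0.25), and the gene missed the threshold (edgeR adjusted p = 0.0685), while DESeq2's test called it (adjusted p = 0.00246, range 0.00246 to 0.206 over all alternatives). Cd27 lies on the minus strand of chromosome 6, at 125232622 to 125237010, and overlaps the span of Vamp1 on the opposite strand, which held 10630 counts against 1273 on Cd27, with no exon bases in common.

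Tnfrsf4, which encodes OX40 on activated and regulatory T cells, measured 2.86, 2.87, 1.74 and 3.75 CPM in saline and 0.825, 2.44, 2.38 and 2.19 CPM in mAb-DXd/IMQ tumors. The groups overlapped, and the lowest value was that of treated tumor 1, far from the other treated tumors. Tnfrsf4 had a log2 fold change of -0.52 (SE 0.37; edgeR adjusted p = 0.482), and -0.26 without treated tumor 1 or -0.34 without saline tumor 4.

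Tnfrsf18, which encodes GITR, measured 3.12, 2.64, 3.01 and 3.00 CPM in saline and 2.21, 3.02, 2.45 and 2.92 CPM in treated tumors. Its values were the least variable of the 10 genes in both groups, with coefficients of variation of 7.11% and 14.6%. The log2 fold change was -0.15 (SE 0.22; edgeR adjusted p = 0.756), and it was -0.077 without treated tumor 1 and -0.27 with the gene length trend removed. The antisense gene Gm16008 shares 414 exon bases with Tnfrsf18 and held 732 counts against 1108, so part of these reads may belong to either gene. With the length trend removed, Tnfrsf18 was also lower in every treated tumor, and Cd28 then overlapped.

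Tnfrsf4 and Tnfrsf18 are adjacent on the plus strand of chromosome 4, at 156013843 to 156016612 and 156026164 to 156028895, 9.6 kb apart. Tnfrsf4 CPM divided by Tnfrsf18 CPM averaged 0.957 ± 0.287 in saline and 0.726 ± 0.253 in mAb-DXd/IMQ tumors (SD, n = 4 each), with overlap. Next to them lie Sdf4, a calcium-binding protein gene of the Golgi lumen, with a log2 fold change of 0.31 (SE 0.12), and Ttll10, a glycylase gene, with 0.31 (SE 0.54).

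Tnfrsf9 encodes 4-1BB, which is induced on activated CD8 T cells and NK cells and is also made by some myeloid and endothelial cells. It stood at 37.8, 42.6, 28.6 and 37.6 CPM in saline tumors and at 67.9, 51.3, 29.9 and 59.6 CPM in mAb-DXd/IMQ tumors. Treated tumors 1, 2 and 4 were above all saline tumors and treated tumor 3 was near the lowest of them. The log2 fold change of 0.51 (SE 0.22) was the only one above 0 among the members and did not pass (edgeR adjusted p = 0.241); it stayed above 0, at 0.35 to 0.70, with each tumor left out in turn. Tnfrsf9 lies on chromosome 4 at 150914562 to 150946102, on the plus strand, between Park7, which encodes the redox sensor DJ-1, and Uts2, which was not tested. Park7 had a log2 fold change of 0.22 (SE 0.19), and the opposite-strand gene Camta1 overlaps the span of Tnfrsf9, without common exon bases, with 5826 counts against 17097.

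Over all members, 12 flanking genes were not members themselves, and 10 of these were tested. Their log2 fold changes ran from -0.48 to 0.38, 5 below and 5 above 0, and the lowest edgeR adjusted p among them was 0.209. Tapbpl, an antigen-processing gene next to Cd27, had 0.14 (SE 0.17).

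RefSeq start sites on GRCm38.p6 gave promoter sequence for 6 of the 10 members, at 7 starts: Ctla4, Cd5, Cd27, Tnfrsf4, Tnfrsf18 and 2 starts of Tnfrsf9. The windows of Tnfrsf9, the member whose level was higher, and of Cd27, a member whose groups were apart in the other direction, are shown for comparison, each holding the 250 bases before the start, 5′ to 3′ on the gene's own strand. Capitals mark matches to the motifs searched on both strands, which were the 10-base NF-kB consensus, TGANTCA (AP-1), GGAAAA (NFAT core), TGTGGT (RUNX) and TATAAA. The upstream start of Tnfrsf9 is preceded by chr4:150919905-150920154 (plus strand), the downstream start by chr4:150927749-150927998 (plus strand), both within the span of the gene, and Cd27 by chr6:125237028-125237277 (minus strand), just outside its span.
Tnfrsf9 upstream start: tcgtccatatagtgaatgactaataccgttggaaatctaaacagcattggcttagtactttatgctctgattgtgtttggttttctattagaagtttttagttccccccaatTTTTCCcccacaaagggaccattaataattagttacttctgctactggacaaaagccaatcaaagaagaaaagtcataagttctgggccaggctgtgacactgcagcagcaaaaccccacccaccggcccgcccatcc
Tnfrsf9 downstream start: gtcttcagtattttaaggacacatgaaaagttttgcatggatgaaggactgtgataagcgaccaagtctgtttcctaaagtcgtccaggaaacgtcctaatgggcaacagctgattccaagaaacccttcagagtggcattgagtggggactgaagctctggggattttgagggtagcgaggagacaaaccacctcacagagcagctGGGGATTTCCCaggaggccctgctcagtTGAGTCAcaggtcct
Cd27: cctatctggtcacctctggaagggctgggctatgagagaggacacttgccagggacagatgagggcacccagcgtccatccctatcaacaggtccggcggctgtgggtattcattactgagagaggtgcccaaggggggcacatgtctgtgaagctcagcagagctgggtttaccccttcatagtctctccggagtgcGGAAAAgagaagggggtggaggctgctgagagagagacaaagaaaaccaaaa
The downstream start of Tnfrsf9 had overlapping matches to the NF-kB consensus at positions -43 to -33 and a TGANTCA match at -15 to -9, counted back from the start. Among all 32851 promoter windows of this length, 7.25% held the NF-kB consensus and 6.75% held TGANTCA, and in both cases this was the only 1 of the 7 member windows with a match. GGAAAA was found in 4 of the 7 (Cd27, Ctla4, Tnfrsf18 and the upstream start of Tnfrsf9) and in 20.4% of all windows. TGTGGT and TATAAA, present in 14% and 12.4% of all windows, were in 0 of the 7. A match gives the letters only, and binding of any factor was not measured.

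Levels were then compared between the genes per length, as CPM divided by gene length in kb (RPKM). In saline tumors Tnfrsf9 was highest at 13.5 ± 2.15 RPKM (SD, n = 4), with no overlap with Cd2, next at 2.77 ± 0.62 RPKM. Tnfrsf4 (2.05), Tnfrsf18 (1.93), Cd27 (1.78), Cd6 (1.71), Ctla4 (1.40), Cd5 (1.38) and Icos (1.38 RPKM) followed, and each overlapped the next in this order. Cd28 was lowest at 0.442 ± 0.115 RPKM, apart from Icos.

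In mAb-DXd/IMQ tumors Tnfrsf9 was again highest at 19.2 ± 5.99 RPKM (SD, n = 4), apart from the next gene. Cd2, second in saline tumors, stood at 1.02 ± 0.38 RPKM, behind Tnfrsf18 (1.74 RPKM) and Tnfrsf4 (1.44 RPKM), although adjacent genes in this order overlapped. Cd28 was again lowest, at 0.212 ± 0.115 RPKM, and here it overlapped the gene above it.

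Tnfrsf9 made up a large part of the summed per-length level of the 10 genes: 52.7, 51.2, 44.0 and 42.6% in saline tumors and 76.6, 65.7, 62.4 and 67.6% in mAb-DXd/IMQ tumors. The share was above every saline value in each treated tumor. In CPM, the sum of all 10 genes was nearly level, at 70.7 ± 9.90 in saline and 71.5 ± 19.7 in mAb-DXd/IMQ tumors (SD, n = 4). Without Tnfrsf9, the other 9 genes summed to 27.5, 35.9, 31.0 and 42.0 CPM in saline tumors and to 18.4, 21.4, 13.4 and 24.1 CPM in mAb-DXd/IMQ tumors, with no overlap and a 1.77-fold higher saline mean. This split into 9 genes and 1 was made after the values were seen.

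**Figure D2:**
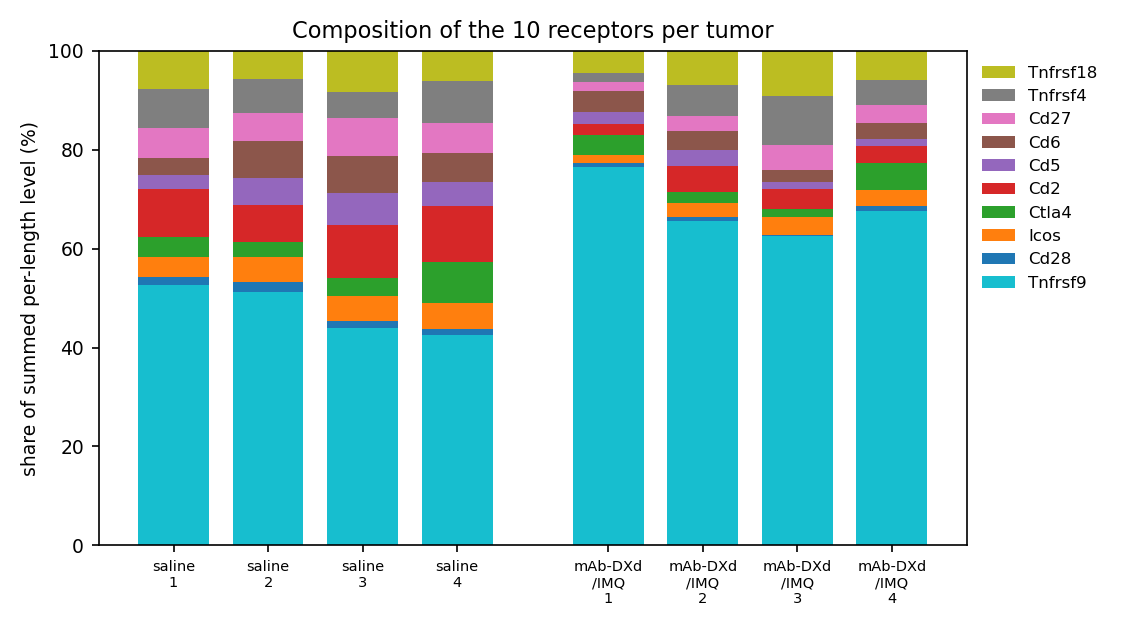
Share of each receptor gene (%) in the summed per-length level of the 10 genes, as stacked bars for each saline and mAb-DXd/IMQ tumor. Tnfrsf9, the lowest segment, held 42.6 to 52.7% in saline tumors and 62.4 to 76.6% in mAb-DXd/IMQ tumors.

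The receptors were set beside T cell markers of the same tumors. Cd3d, Cd3e and Cd3g, which encode chains of the T cell receptor complex, summed to 19.9, 34.1, 32.7 and 23.5 CPM in saline tumors and to 20.1, 17.3, 8.85 and 16.5 CPM in mAb-DXd/IMQ tumors. Treated tumor 1 just exceeded the lowest saline tumor, and the group means were 27.5 ± 6.96 and 15.7 ± 4.81 CPM (SD, n = 4; two-sided exact permutation test over 70 assignments, p = 0.0571, smallest possible 0.0286). Cd3d, Cd3e and Cd3g had log2 fold changes of -0.88 (SE 0.31), -0.98 (SE 0.29) and -0.69 (SE 0.27).

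The T cell marker list had 13 genes, all 13 with a log2 fold change below 0 (median -1.08). Of these, 2 passed the thresholds with a lower level, as 0.519% of all genes tested did, while Trbc1 at -0.040 and Skap1 at -0.14 were near 0. The summed level of the list was 90.5, 135, 128 and 122 CPM in saline tumors and 77.7, 69.4, 44.4 and 61.6 CPM in mAb-DXd/IMQ tumors. Cd4 and Cd8a, the coreceptors of helper and cytotoxic T cells, were the 2 that passed: on the log2 scale Cd4 fell by 1.91 (SE 0.25) and Cd8a fell by 1.22 (SE 0.17) (edgeR adjusted p = 0.0201 for both). Cd8a was the most abundant of the list, at 34.6 and 14.8 CPM in the respective groups. Foxp3, the defining factor of regulatory T cells, was at 1.50, 1.38, 0.967 and 1.87 CPM in saline and 0.268, 0.364, 0.240 and 0.956 CPM in mAb-DXd/IMQ tumors, without overlap (log2 fold change -1.66, SE 0.48; edgeR adjusted p = 0.101).

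Each receptor was next divided by the summed Cd3 level of its own tumor, which puts it on a scale relative to T cell RNA. On this scale 0 of the 10 members were lower in every mAb-DXd/IMQ tumor than in every saline tumor, and 0.0594% of all genes tested were. Cd2 relative to Cd3 averaged 0.188 ± 0.074 in saline and 0.119 ± 0.040 in mAb-DXd/IMQ tumors (SD, n = 4), with overlap, and Icos averaged 0.178 ± 0.056 and 0.180 ± 0.065. Relative to Trac, Trbc1 and Trbc2, and relative to Ptprc, Cd2 was lower without overlap, but relative to Cd4 and Cd8a it overlapped, at 0.117 ± 0.030 and 0.108 ± 0.039. The part of T cell content in the lower receptor levels was not tested.

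Tnfrsf9 relative to Cd3 was 1.90, 1.25, 0.873 and 1.60 in saline tumors and 3.38, 2.97, 3.39 and 3.62 in mAb-DXd/IMQ tumors. It was the 1 member higher in every treated tumor on this scale, and 32.5% of all genes tested were too, with the Cd3 level itself lower. Treated tumor 3, which had the lowest Tnfrsf9 CPM of its group, also had the lowest Cd3 level, and its quotient was similar to those of the other treated tumors. Relative to Ptprc the groups overlapped, at 0.239 ± 0.047 and 0.405 ± 0.174 (SD, n = 4). The values were 0.302, 0.242, 0.190 and 0.222 in saline tumors and 0.541, 0.423, 0.155 and 0.502 in mAb-DXd/IMQ tumors. Every treated tumor except tumor 3 was above all saline tumors, and tumor 3 was below them.

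**Figure D3:**
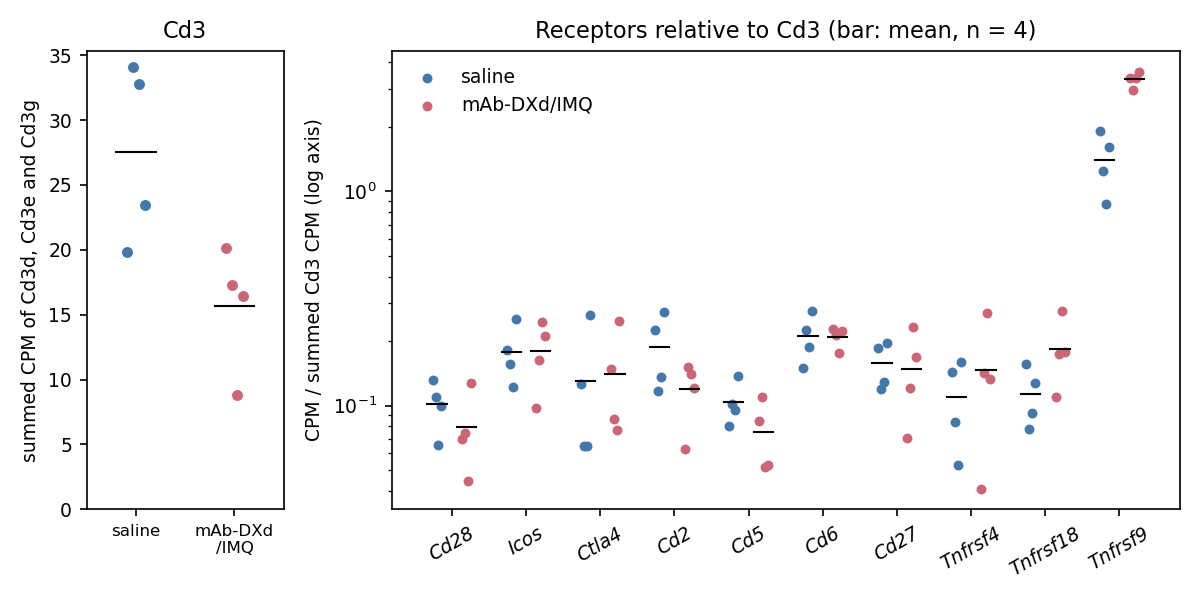
Left, summed CPM of Cd3d, Cd3e and Cd3g in each tumor; right, CPM of each receptor gene divided by that sum (log axis), with 1 point per tumor and a bar at the mean of 4 tumors. The quotients of 9 receptor genes overlapped between groups, and those of Tnfrsf9 were 0.873 to 1.90 in saline and 2.97 to 3.62 in mAb-DXd/IMQ tumors.

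The other genes of costimulation were taken from 4 lists with 53 genes, of which 50 were tested. Of these 50, 0 passed with a higher and 1 with a lower level in edgeR's quasi-likelihood test, 15 had an unadjusted p under 0.05, and DESeq2's test called 9 and limma-voom 1. Over all genes tested, 1.06% passed in edgeR's test, 0.519% with a lower level, and 18.9% had an unadjusted p under 0.05. DESeq2's test called 4.25% of all genes tested and limma-voom 0.94%. Of the 50, 39 had a log2 fold change below 0, against 47.4% of all genes tested, but the ligands were mixed.

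The ligands, which sit mainly on antigen-presenting cells, had 7 of 9 genes tested, with 4 above and 3 below 0 and a median log2 fold change of 0.17. Tnfsf4, the ligand of OX40, measured 1.14, 0.496, 1.20 and 1.29 CPM in saline and 3.05, 2.08, 1.55 and 3.01 CPM in mAb-DXd/IMQ tumors. It was higher in every treated tumor (log2 fold change 1.22, SE 0.36; edgeR adjusted p = 0.108), the opposite direction to its receptor. Cd80, a ligand of CD28 and CTLA-4, averaged 4.65 ± 1.05 and 7.03 ± 1.52 CPM (log2 fold change 0.60, SE 0.23; edgeR adjusted p = 0.195). Alcam, the ligand of CD6, was the most abundant of this list in CPM, at 160 and 137 CPM. Cd70 and Tnfsf18 had too few counts to be tested.

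The other costimulatory receptors had 11 of 12 genes tested, 9 below 0, with a median log2 fold change of -0.49. Cd7, a T and NK cell surface protein, averaged 1.22 ± 0.80 and 0.441 ± 0.160 CPM (log2 fold change -1.46, SE 0.51; edgeR adjusted p = 0.161). Slamf6, a SLAM family receptor of progenitor-like T cells, averaged 7.87 ± 4.45 and 3.97 ± 0.95 CPM (log2 fold change -0.98, SE 0.37; edgeR adjusted p = 0.186). Cd84 was the most abundant of these genes in CPM, at 69.3 and 49.3 CPM.

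Of the 8 coinhibitory receptors, all tested, 7 were below 0 with a median log2 fold change of -0.20. Lag3, which binds MHC class II and restrains T cells, measured 12.6, 12.8, 14.2 and 10.3 CPM in saline and 6.02, 8.42, 7.58 and 6.10 CPM in mAb-DXd/IMQ tumors. The groups were apart and the test just missed its threshold (log2 fold change -0.83, SE 0.18; edgeR adjusted p = 0.0517). Btla, an inhibitory partner of HVEM, had a log2 fold change of -1.16 (SE 0.36; edgeR adjusted p = 0.122). Vsir was the most abundant of these genes in CPM, at 148 and 133 CPM.

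The signaling list had 24 genes, all tested, with 20 below 0 and a median log2 fold change of -0.26. In CPM, 6 of the 24 were lower in every treated tumor, against 7.1% of all genes tested. Cblb, a ubiquitin ligase that sets the need for CD28 signals, had a log2 fold change of -0.59 (SE 0.13; edgeR adjusted p = 0.0517). Grb2, an adaptor, was the most abundant of the list over both groups, at 132 and 109 CPM, although Cd2ap, at 120 and 113 CPM, was above it after treatment.

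**Figure D4:**
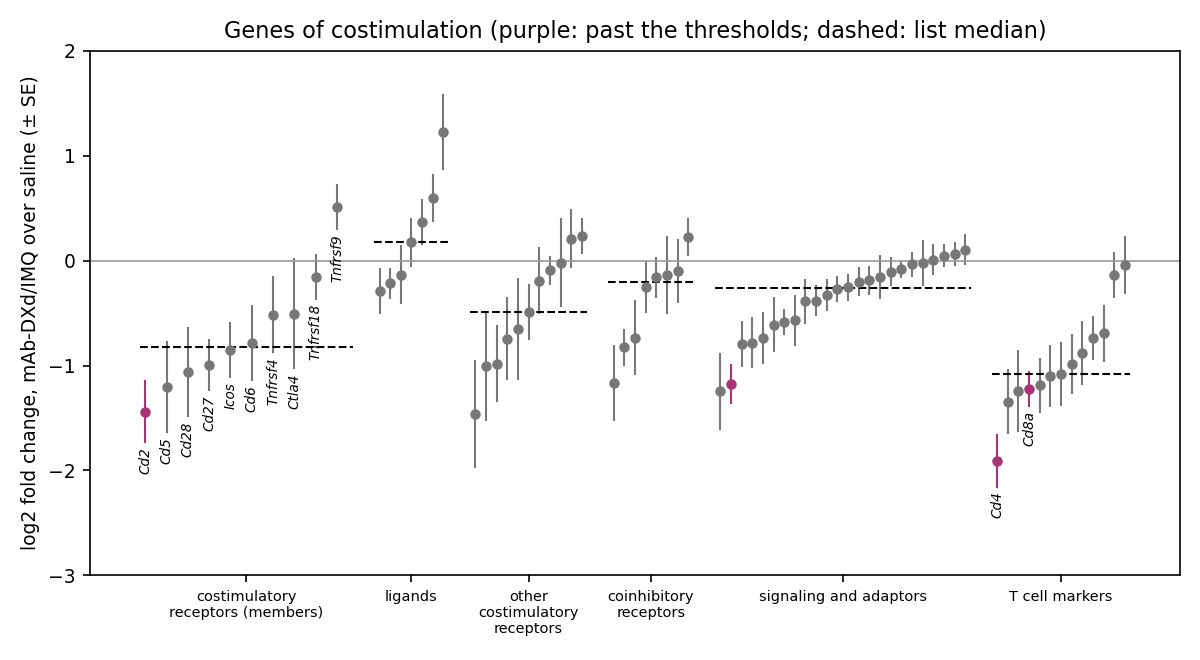
Log2 fold change of mAb-DXd/IMQ over saline (± approximate SE) for each tested gene of the receptor list, the 4 lists of other costimulation genes and the T cell markers; purple points passed the thresholds, and dashed lines are list medians. The medians were -0.82 for the 10 receptors, 0.17 for the ligands and -1.08 for the T cell markers.

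Markers of other cell types, some of which can carry these receptors, were summed in each tumor. The NK cell list (7 genes, 5 above 0) summed to 61.4, 53.2, 60.4 and 63.3 CPM in saline and 71.2, 74.4, 66.7 and 86.4 CPM in mAb-DXd/IMQ tumors, higher in every treated tumor, although no gene of the list passed the thresholds. Its most abundant gene, Prf1, which encodes perforin of NK and cytotoxic T cells, averaged 18.5 ± 9.64 and 35.6 ± 3.76 CPM (log2 fold change 0.95, SE 0.27; edgeR adjusted p = 0.104). Without Prf1, a split made after the values were seen, the other 6 genes summed to 28.4, 40.4, 45.5 and 49.9 CPM in saline and 35.7, 40.3, 34.6 and 45.5 CPM in mAb-DXd/IMQ tumors, with overlap. Of these 6 genes, 4 were above 0 (Eomes 0.89, SE 0.25; Ncr1 0.64, SE 0.30; Klre1 0.25, SE 0.33; Klrb1c 0.095, SE 0.51) and 2 below (Klrk1 -0.47, SE 0.20; Klrd1 -0.35, SE 0.26), and only Eomes was without overlap (edgeR adjusted p = 0.0885). The part of NK cells in the level of Tnfrsf9 was not tested.

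The regulatory T cell list (5 genes, 4 below 0) summed to 60.7, 49.6, 56.6 and 53.8 CPM in saline and 37.6, 48.2, 40.3 and 49.7 CPM in mAb-DXd/IMQ tumors, and the groups just overlapped. Most of this sum came from Ikzf2, the list's most abundant gene, at 32.1 and 23.3 CPM, and Lrrc32, at 15.6 and 14.3 CPM. Foxp3 added only 1.43 and 0.457 CPM and, unlike the sum, did not overlap. Il2ra was the gene not below 0, at 0.00031 (SE 0.20). The part of regulatory T cells in the levels of Ctla4, Icos, Tnfrsf4 and Tnfrsf18 was not tested. Ctla4 CPM divided by Foxp3 CPM averaged 2.20 ± 0.80 in saline and 5.58 ± 3.73 in mAb-DXd/IMQ tumors (SD, n = 4), with overlap; treated tumor 1 was at 11.1 and the other treated tumors at 2.82 to 4.29, on only 13, 17, 11 and 34 counts of Foxp3 in the treated tumors.

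The myeloid list (8 genes, all 8 below 0) summed to 386, 824, 460 and 572 CPM in saline and 364, 312, 408 and 290 CPM in mAb-DXd/IMQ tumors, led by Csf1r at 288 and 175 CPM. Its log2 fold changes ran from -1.81 to -0.038, and no myeloid gene passed the thresholds. The mast cell list (3 genes, all 3 below 0) summed to 57.2, 4.94, 40.5 and 54.0 CPM and to 3.51, 13.4, 2.69 and 9.02 CPM, so saline tumor 2 lay among the treated tumors. Mcpt4, its most abundant gene, averaged 21.1 and 4.58 CPM, and the protease gene Cpa3, named after its values were seen, fell by 2.84 on the log2 scale (SE 0.58; edgeR adjusted p = 0.0433). The B cell list (5 genes, 3 tested) summed to only 2.01 ± 0.84 and 1.68 ± 0.43 CPM (SD, n = 4), with Cd79b at 0.981 and 0.338 CPM and Pax5 at 0.149 and 0.742 CPM the most abundant in saline and treated tumors, respectively. Neither passed the thresholds, and both were without overlap, with log2 fold changes of -1.53 (SE 0.49; edgeR adjusted p = 0.129) and 2.25 (SE 0.74; edgeR adjusted p = 0.136).

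The endothelial list (3 genes, all 3 above 0) summed to 71.7, 174, 121 and 130 CPM in saline and 166, 145, 163 and 137 CPM in mAb-DXd/IMQ tumors, led by Pecam1 at 60.9 and 71.5 CPM. The fibroblast list (3 genes, all 3 below 0) averaged 2729 ± 1088 and 2593 ± 1078 CPM, led by Col1a1 at 2585 and 2484 CPM, and the epithelial list (5 genes, all 5 above 0) averaged 2141 ± 337 and 2475 ± 577 CPM (SD, n = 4). Log2 fold changes ran from 0.23 to 0.56 in the endothelial, from -0.48 to -0.058 in the fibroblast and from 0.0083 to 1.04 in the epithelial list. No gene of these lists passed the thresholds. All marker lists had 0 genes without counts, and the part of these other cell types in the receptor levels was not tested.

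**Figure D5:**
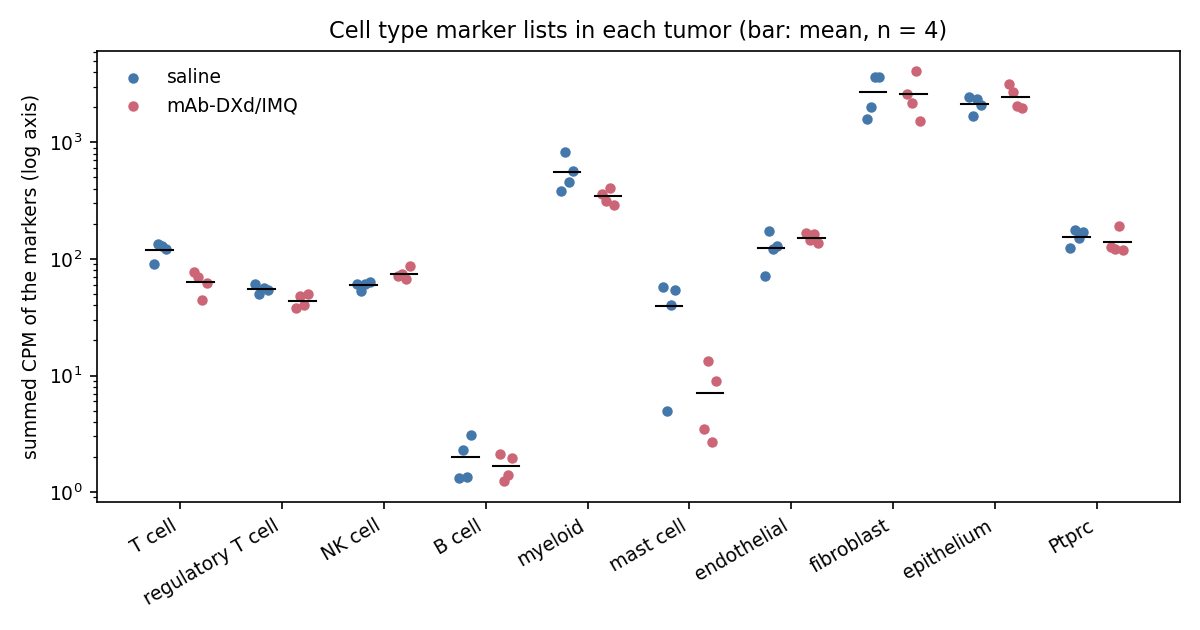
Summed CPM (log axis) of each cell type marker list and of Ptprc in the 4 saline and 4 mAb-DXd/IMQ tumors, with 1 point per tumor and a bar at the group mean. The T cell sum was lower in every mAb-DXd/IMQ tumor than in every saline tumor; the NK cell sum was higher in every one, but overlapped without Prf1.

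The members differed among themselves in how they varied over the 8 tumors. On centered log2 CPM, the mean profile of the 10 genes was 0.15, 0.48, 0.22 and 0.66 in saline tumors and -0.38, -0.14, -0.99 and -0.0046 in mAb-DXd/IMQ tumors, with treated tumor 3 lowest. Icos was nearest to this profile, with a root mean square difference of 0.21, and Tnfrsf9 was farthest, with 0.65. Ctla4 at 0.61, Tnfrsf4 at 0.57 and Cd5 at 0.57 came next in distance.

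The 5 genes outside the list whose profiles over the 8 tumors lay nearest to that mean were Mapk13, Bdnf, Bhlhe41, Slc43a2 and Dmtn, with root mean square differences of 0.13, 0.14, 0.14, 0.16 and 0.16. Mapk13, a stress-activated kinase, had a log2 fold change of -0.68 (SE 0.22; edgeR adjusted p = 0.133). None of the 5 was among the lists used here, and nearness of profile is a description of these 8 tumors.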

How the data were processed

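Bulk RNA-seq was available for 8 tumors, 4 saline and 4 mAb-DXd/IMQ, grouped by their sample labels. The deposited table holds read counts that the authors did not normalize, with gene lengths. Libraries were made from poly-A RNA, and whether they kept strand is not given in the sources used here. The submitters' processing notes name HISAT2, HISAT, TopHat2 and mm39, yet 98.3% of the 54409 genes shared with GENCODE M21 had identical GRCm38 coordinates, so positions are given on GRCm38. RPKM was computed from the deposited counts and lengths.

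Genes were kept by filterByExpr (minimum count 10, minimum total count 15), scaled by TMM, and compared with edgeR's quasi-likelihood test (no covariates) and Benjamini-Hochberg adjustment over all 18511 genes tested. The study's methods name edgeR and its thresholds, but not the test or the filter. Standard errors were approximated from the F statistic. Versions were edgeR 4.0.16, DESeq2 1.42.0 and limma 3.58.1 in R 4.3.3, and pandas 2.3.3 and matplotlib 3.10.9 in Python 3.11.15. Profiles used log2 CPM with a prior count of 2. Cell type levels are sums of CPM over marker lists.

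The members and lists were chosen with earlier results of these data known. Named genes were the 10 members; in each of the 4 lists of costimulation genes, those past the thresholds and the 2 with the smallest unadjusted p; tested flanking protein-coding genes; Cd3d, Cd3e, Cd3g, Cd4, Cd8a, Foxp3 and Ptprc; the 5 genes of at least 1 mean CPM nearest in profile; and the most abundant gene of each marker list. Other genes were named after their values were seen. A gene that this rule selects is not reported here. Alternatives covered scaling, filters, tests, thresholds, the gene length trend (natural spline, 5 degrees of freedom), a replicate block, other denominators and each tumor left out. Steps were tested on simulated data. No duplicated libraries were found. No reads were used, and p-values judge the difference between the groups against the spread between these tumors.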

Additional observations from a re-analysis of the deposited data

Results flagged for a closer look

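Within each group of 4 tumors, 70 sets of values (members, summed lists and members relative to Cd3) were checked for a tumor far from the other 3, and 3 stood out, against 3.5 expected by chance. Ctla4 in saline tumor 4, at 6.23 CPM, lay above the other saline tumors, with 0.908 of the group's range between it and the next. Tnfrsf4 in mAb-DXd/IMQ tumor 1, at 0.825 CPM, lay below the other treated tumors, with a gap of 0.846 of the range. Ptprc, at 193 CPM in mAb-DXd/IMQ tumor 3, lay above the other treated tumors, with a gap of 0.91 of the range; this tumor also had the lowest Cd3 level and the fewest receptor counts.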

How the results depend on the processing

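Over 19 alternatives for each of the 10 receptors, 176 of 190 kept the direction and the side of the thresholds, 11 lost a call (all Cd2), 2 gained one (Icos and Cd27, with DESeq2's test), and 1 reversed: Ctla4, at 0.028 without saline tumor 4 (-0.92 to 0.028 with each tumor left out). The causes were not tested.

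The number of members past the thresholds was 3 with DESeq2's test, 0 with library size alone, 0 when any 1 tumor was left out and 0 with the replicate block, alone or with the gene length trend removed. For the other costimulation genes it was 2 with DESeq2 size factors, 3 without a filter, 2 with a stricter filter, 9 with DESeq2's test, 2 with the length trend removed, 0 with either replicate block and 0 to 1 with a tumor left out. Over all genes, DESeq2's test called 787 of the 18511 tested (4.25%). Library size alone gave 194 calls, DESeq2 size factors 203 and the length trend removed 122. Without a filter 358 of 31459 genes were called, and with a stricter filter 233 of 14656. Members lower in every treated tumor numbered 2 with upper-quartile factors (5.48% of all genes tested), 3 with library size alone (6.1%) and 4 to 6 with a tumor left out (7.78% to 10.8%). Relative to Trac, Trbc1 and Trbc2 (0.313% of all genes tested), and to Ptprc (0.794%), 1 member was lower in every treated tumor, against 0 relative to Cd3, also with each tumor left out. The count of members higher relative to Cd3, a result added after the data were seen, was 2 relative to Cd4 and Cd8a (72% of all genes tested), 0 relative to Ptprc (4.45%) and 1 to 2 with a tumor left out (32.7% to 53.2%). The Cd3 difference of -11.9 CPM was -11.5 with library size alone (exact permutation test, p = 0.0286) and -14.5 to -9.51 with a tumor left out. In the exact permutation test, p was 0.0286 without saline tumor 1, the smallest possible there. With any other tumor left out it was 0.0571 to 0.114.

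Over all genes, 197 calls became 787 with DESeq2's test, 358 without a filter, 122 with the length trend removed and 10 to 203 with a tumor left out, which removes samples from the test. The replicate block left 14 calls, and the Cd3 difference of -11.9 CPM had p = 0.25 by exact sign changes of the 4 pairs, a test whose smallest p is 0.125 and which could not pass 0.05. Same-numbered tumors did not deviate together (correlations -0.17, -0.0546, 0.0794 and -0.0672), and 1 of 4 saline tumors correlated best with its own number, so they share only a number. Members with mean levels of 1 to 5 CPM rest on few counts per tumor, as few as 18 for Cd28 in treated tumor 3, at 0.393 CPM. How far this limits the differences that can be seen was not tested for these genes.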
